A study of Homo sapiens with 4 samples.

Results

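The TGF-beta group described here holds the genes of the 3 TGF-beta ligands (TGFB1, TGFB2 and TGFB3), their receptors TGFBR1 and TGFBR2, the latent TGF-beta binding proteins LTBP1, LTBP2 and LTBP3, and the TGF-beta-induced genes TGFBI and PMEPA1. Its 10 members were chosen by gene symbol from the 18417 genes of the array, and each had 1 probe set. Expression was measured on 4 arrays, 1 for each condition. The conditions were U2-OS cells with OGE at 600 μg/mL, U2-OS cells with none (0 μg/mL), HOS cells with OGE at 600 μg/mL and HOS cells with none, all for 24 h. U2-OS and HOS are established human osteosarcoma lines, grown in serum-containing medium, and the labels do not spell out OGE. Each condition was measured on 1 array, so within a line no value has a replicate or a p-value.

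TGF-beta is secreted in a latent form. Its propeptide stays wrapped around the growth factor, and a latent TGF-beta binding protein is bonded to that propeptide and tethers the complex to the matrix. Integrins, proteases or thrombospondin release the growth factor, which binds TGFBR2. TGFBR2 then recruits and phosphorylates TGFBR1, which phosphorylates SMAD2 and SMAD3, and these enter the nucleus with SMAD4. Bone matrix is a large store of latent TGF-beta, and osteoblasts both make it and respond to it.

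The values are RMA expression levels on a log2 scale, so a difference of 1 is 2-fold. The array medians over all probe sets lay between 3.58 and 3.62. A call by size, higher or lower, needed a difference of at least 1 between the arrays. The larger of the values also had to reach the median of its own array, which is the floor here. Of the 10 members, 8 were at or above the median on all 4 arrays, TGFB3 on 3 and LTBP1 on 2. The labelled cell type was checked against markers. Of 10 measured mesenchymal and osteoblast markers, 7 were at or above the median on every array, among them VIM, SPARC, RUNX2 and SP7, and the late bone markers IBSP and SPP1 were below it on all. CDH2, COL1A1 and SPARC of this list were lower by size with OGE in U2-OS and COL1A2 in HOS, and the median level of the list was 4.28 with OGE and 4.53 without it in U2-OS, and 5.53 with OGE and 5.93 without it in HOS. All 4 endothelial markers and 4 of 5 immune markers, PTPRC among them, were below the median on all arrays. Of 6 epithelial markers, the keratins KRT8 and KRT18 were above the median on all arrays. KRT8 was at 7.84 with OGE and 8.16 without it in U2-OS, and at 9.21 with OGE and 9.38 without it in HOS, and KRT18 lay between 9.05 and 10.09. CDH1, the cadherin of epithelia, was below the median on all arrays, and EPCAM, KRT19 and CLDN4 were above it on some. The other immune marker, CD68, which lysosomes of many cells also hold, was at 5.55 with OGE and 4.20 without it in U2-OS, and at 5.86 with OGE and 4.81 without it in HOS, and so was higher by size in both lines. The part of these markers in the results was not tested. In these bulk arrays, fewer cells of a kind and less RNA per cell cannot be told apart.

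With OGE, TGFB2 was lower by size in both lines, and LTBP1 and PMEPA1 were lower by size in U2-OS. No member was higher by size in either line. In U2-OS, 3 of 10 members were lower, against 7.88% of the 11506 genes at the floor, and 0 were higher, against 2.94%. Calls in either direction made up 10.8% of those genes. In HOS, where 9 members were at the floor, 1 was lower, against 2.18% of 11333 genes, and 0 were higher, against 1.7%, with 3.88% of genes called in either direction. Between the lines, irrespective of OGE, TGFB2, TGFBR2, LTBP1, LTBP2 and PMEPA1 were higher by size in U2-OS.

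**Figure D1:**
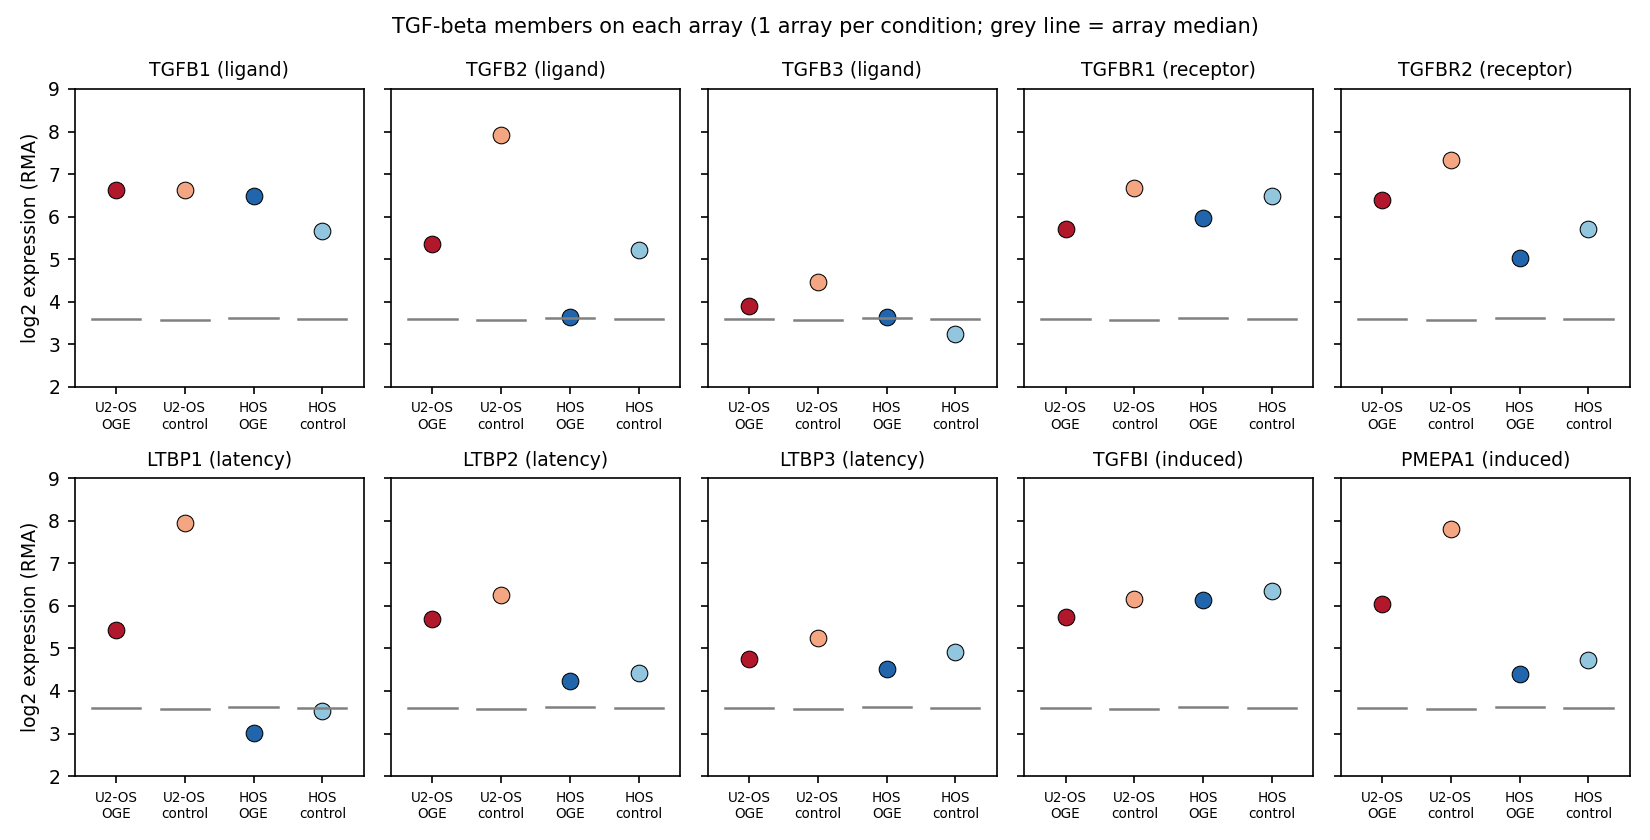
Log2 expression of the 10 members on the 4 arrays, from left to right U2-OS with OGE, U2-OS control, HOS with OGE and HOS control, with 1 point for each array and a grey line at the median of that array over all probe sets. TGFB2, LTBP1 and PMEPA1 stand highest in untreated U2-OS, at 7.91, 7.95 and 7.80, and LTBP1 lies below the median in both HOS arrays. TGFB3, TGFBR1, TGFBR2, LTBP2 and LTBP3 are also highest in untreated U2-OS.

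The sequences at the starts of these 3 genes are shown because they are the members lower by size with OGE in U2-OS, with TGFB1 beside them as the ligand that had the largest positive change. They are RefSeq promoter windows of GRCh38.p14, from 250 bases before to 50 bases after an annotated start, read 5′ to 3′ on the gene's strand. TGFB2 is at chr1:218345086-218345385 on the plus strand, LTBP1 at chr2:32946703-32947002 on the plus strand, PMEPA1 at chr20:57709966-57710265 on the minus strand and TGFB1 at chr19:41353873-41354172 on the minus strand. Capitals mark every match, on either strand, to the 5 motifs searched.
TGFB2: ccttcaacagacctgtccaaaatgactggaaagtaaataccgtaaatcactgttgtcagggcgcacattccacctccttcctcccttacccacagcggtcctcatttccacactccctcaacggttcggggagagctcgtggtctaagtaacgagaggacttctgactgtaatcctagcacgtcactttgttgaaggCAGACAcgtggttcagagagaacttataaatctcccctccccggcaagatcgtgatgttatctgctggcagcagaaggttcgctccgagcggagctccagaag
LTBP1: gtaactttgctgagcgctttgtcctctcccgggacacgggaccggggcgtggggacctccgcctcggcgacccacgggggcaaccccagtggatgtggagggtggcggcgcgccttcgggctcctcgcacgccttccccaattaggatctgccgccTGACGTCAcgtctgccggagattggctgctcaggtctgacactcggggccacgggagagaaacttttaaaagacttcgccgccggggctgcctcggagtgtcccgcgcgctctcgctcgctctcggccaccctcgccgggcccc
PMEPA1: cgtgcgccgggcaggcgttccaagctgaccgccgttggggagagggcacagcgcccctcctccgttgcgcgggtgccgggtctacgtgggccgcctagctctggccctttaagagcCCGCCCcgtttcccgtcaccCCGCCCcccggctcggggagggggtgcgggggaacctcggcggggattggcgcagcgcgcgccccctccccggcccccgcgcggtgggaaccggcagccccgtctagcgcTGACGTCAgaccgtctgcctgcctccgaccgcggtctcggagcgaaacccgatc
TGFB1: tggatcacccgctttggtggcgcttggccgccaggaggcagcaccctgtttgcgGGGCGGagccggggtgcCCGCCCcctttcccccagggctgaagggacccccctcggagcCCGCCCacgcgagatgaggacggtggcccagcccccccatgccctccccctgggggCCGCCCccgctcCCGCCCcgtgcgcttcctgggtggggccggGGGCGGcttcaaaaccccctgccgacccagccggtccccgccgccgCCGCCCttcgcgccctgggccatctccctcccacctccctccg

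The 5 motifs were TGANTCA of AP-1, CAGACA of the SMADs, TGATGNAAN of ATF4 with a CEBP partner, TGACGTCA of the CRE factors and the GC box GGGCGG. They were searched on both strands, and no matches overlapped in the printed windows. The members have 25 windows in the table, with 1 for TGFB1 and for TGFB2, 3 for LTBP1 and 4 for PMEPA1. For LTBP1 and PMEPA1 the window with a CRE match is the one shown, chosen after the search. The CRE letters began 94 bases before the start in LTBP1 and 4 bases before it in PMEPA1. They are in 1.85% of all 35116 windows and in 2 of the 25 windows of the members. TGFB2 held 1 CAGACA match, which begins 53 bases before the start, and no GC box. CAGACA is in 16.9% of all windows and in 6 of the members' 25, among them windows of TGFBR1, LTBP1 and PMEPA1 that are not shown. TGFB1 held 7 GC boxes and none of the other motifs, and its window was 77.3% G and C, against 51.7% in TGFB2. GC boxes are in 45% of all windows and in 12 of 25. AP-1 letters were in 1 of the members' windows and in 7.71% of all, and the ATF4 letters in 0 of them and in 3.61% of all. A match describes these letters and is not evidence of binding.

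The ligands differed among themselves. TGFB2, which needs the coreceptor betaglycan for efficient receptor binding, was at 5.35 with OGE and 7.91 without it in U2-OS, and at 3.64 with OGE and 5.21 without it in HOS. Both OGE arrays were below the control array of their line, and the HOS array with OGE was just above its median of 3.62. The change was -2.56 in U2-OS, a level 5.90-fold lower, and -1.57 in HOS, a level 2.97-fold lower. Counted from the lowest change, TGFB2 ranked 6 of 11506 genes in U2-OS and 20 of 11333 in HOS. TGFB2 is the member called in both lines, where 1.09% of 10810 genes were lower by size in both and 0.768% were higher in both.

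TGFB1, the most studied ligand and the main form stored in bone, was at 6.63 with OGE and 6.62 without it in U2-OS, and at 6.48 with OGE and 5.67 without it in HOS. Untreated HOS was the low array, and the other 3 lay within 0.15 of each other. Its change was 0.01 in U2-OS, which is the smallest step of the values, and 0.81 in HOS, a level 1.75-fold higher that did not reach the size threshold. TGFB3 was at 3.89 with OGE and 4.47 without it in U2-OS, and at 3.64 with OGE and 3.24 without it in HOS. Its changes of -0.58 in U2-OS and 0.40 in HOS had opposite signs, and both were under the threshold. Apart from untreated U2-OS, at 4.47 against a median of 3.58, its levels were close to the array medians.

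**Figure D2:**
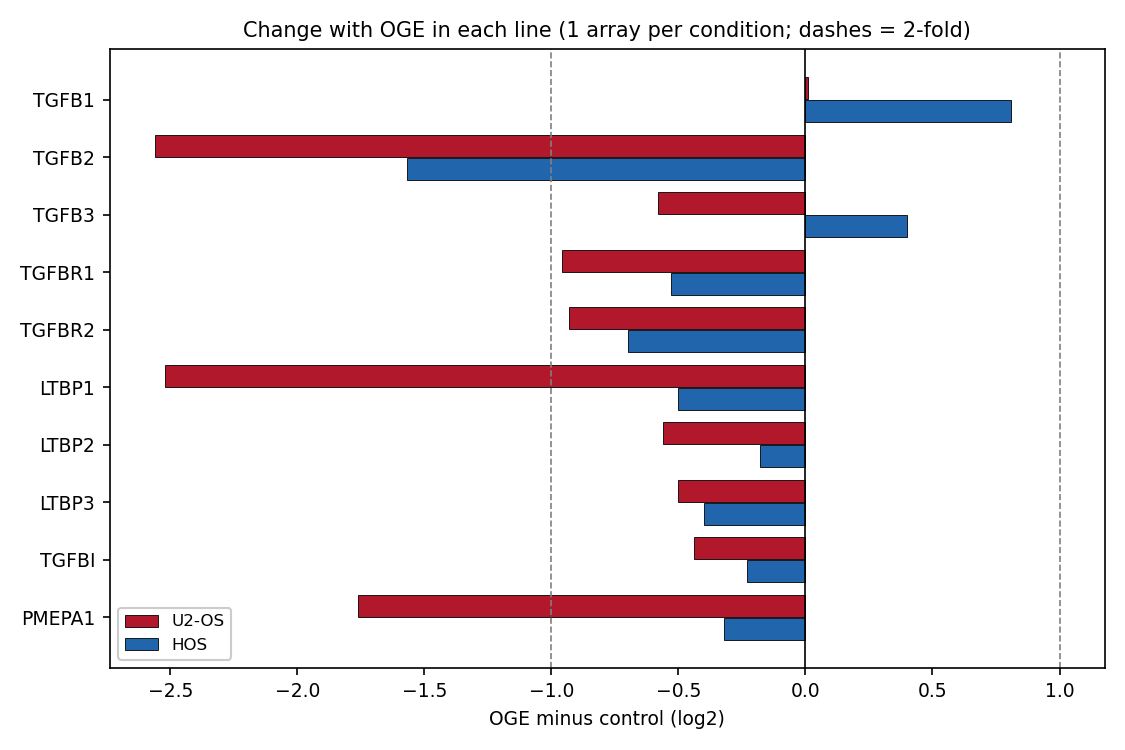
Change with OGE, as OGE minus control on the log2 scale, for each member in U2-OS (red, upper bar) and HOS (blue, lower bar), with 1 array per condition and dashed lines at 2-fold. The TGFB2 bars pass 2-fold in both lines, at -2.56 and -1.57, and those of LTBP1 and PMEPA1 in U2-OS alone, at -2.52 and -1.76.

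Both receptor genes had lower values with OGE in both lines, and none of the 4 differences reached 2-fold. TGFBR2, the kinase that binds ligand first, was at 6.39 with OGE and 7.32 without it in U2-OS, and at 5.02 with OGE and 5.72 without it in HOS, with changes of -0.93 and -0.70. TGFBR1, the kinase that phosphorylates the SMADs, was at 5.72 with OGE and 6.68 without it in U2-OS, and at 5.96 with OGE and 6.49 without it in HOS, with changes of -0.96 and -0.53. For TGFBR1 both OGE arrays were below both control arrays. For TGFBR2 the lines stood apart, and both U2-OS arrays were above both HOS arrays.

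Of the latency proteins, LTBP1 had the larger change and the larger difference between lines. LTBP1, which binds the latent forms of all the ligands and anchors them to fibrillin and fibronectin, was at 5.43 with OGE and 7.95 without it in U2-OS, and at 3.02 with OGE and 3.52 without it in HOS. The change in U2-OS was -2.52, a level 5.74-fold lower, which ranked 8 of 11506 from the lowest. In HOS both arrays were below the array median and the change was -0.50, so LTBP1 was not at the floor there. LTBP3, which also binds latent TGF-beta, was at 4.74 with OGE and 5.24 without it in U2-OS, and at 4.52 with OGE and 4.92 without it in HOS, with changes of -0.50 and -0.40. LTBP2, an elastic fibre protein that does not bind latent TGF-beta, was at 5.70 with OGE and 6.26 without it in U2-OS, and at 4.24 with OGE and 4.42 without it in HOS, with changes of -0.56 and -0.18. All 6 differences were negative, and that of LTBP1 in U2-OS was the one past 2-fold.

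The TGF-beta-induced genes also differed in size. PMEPA1, a membrane protein that binds SMAD2 and SMAD3 and dampens signalling, was at 6.04 with OGE and 7.80 without it in U2-OS, and at 4.40 with OGE and 4.72 without it in HOS. Its change was -1.76 in U2-OS, a level 3.39-fold lower, and -0.32 in HOS. TGFBI, a secreted matrix protein that binds integrins and collagen, was at 5.73 with OGE and 6.17 without it in U2-OS, and at 6.13 with OGE and 6.36 without it in HOS, with changes of -0.44 and -0.23. The TGFBI values of all 4 arrays lay within a range smaller than 2-fold.

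Over the 10 members, the median change was -0.76 in U2-OS and -0.36 in HOS, beside medians of -0.01 and 0.02 over all genes that reached the floor. In U2-OS 9 members had a change below 0, against 50.4% of such genes, and in HOS 8 members, against 47.2%. Gene span moved with these changes over all genes. In U2-OS, 15.7% of genes spanning over 100 kb were lower by size, against 10.6% of those of 20 to 100 kb and 2.84% of shorter ones. LTBP1 spans 453 kb, TGFB2 99.3 kb and PMEPA1 63.1 kb in RefSeq, and the part of span in these changes was not tested.

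Across the lines, limma on all 18417 genes, with line and OGE as terms, called 0 members and 0 genes for OGE at an adjusted p under 0.05 (0% of genes). The lines are the repeats of this contrast. At an unadjusted p under 0.05 limma had 5 members, against 14.2% of all genes. TGFB2 had a mean change of -2.06 ± 0.70 (SD, n = 2 lines), with an SE of 0.29 and an adjusted p of 0.228 in limma, and was lower in 2 of 2 lines. After quantile normalization of the 4 arrays its adjusted p was 0.0298, the lowest of 6 alternative fits, and the highest was 0.826. TGFBR2 had a mean change of -0.82 ± 0.16 and TGFBR1 of -0.74 ± 0.30 (SD, n = 2 lines), with adjusted p of 0.239 and 0.259 in limma. LTBP1 and PMEPA1, whose changes differed more between lines, had means of -1.51 ± 1.43 and -1.04 ± 1.02, with adjusted p of 0.317 and 0.341 in limma.

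The change was more negative, or less positive, in U2-OS than in HOS for each of the 10 members. The difference of the changes, U2-OS minus HOS, was -2.02 for LTBP1, -1.44 for PMEPA1, -0.99 for TGFB2, -0.98 for TGFB3 and -0.80 for TGFB1, and lay between -0.43 and -0.10 for the others. Its median was -0.62, and no share or median over all genes is given here for it. A model with this interaction leaves no residual degrees of freedom, so the difference of the changes was not tested. Of all genes at the floor, 7.88% were lower by size with OGE in U2-OS, against 2.18% in HOS. The untreated U2-OS array enters the difference of the changes with a minus sign. Between the untreated lines, the members' median difference, U2-OS minus HOS, was 1.42.

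Between the lines, U2-OS had higher levels of a ligand, a receptor, latency proteins and PMEPA1. LTBP1 differed most, with U2-OS above HOS by 2.41 with OGE, which is 5.31-fold, and by 4.43 without it, which is 21.6-fold. RMA compresses low values, and LTBP1 was below the median on both HOS arrays. A shift of all genes alike would not be seen after RMA. PMEPA1 was higher in U2-OS by 1.64 with OGE and by 3.08 without it, and TGFB2 by 1.71 and 2.70. LTBP2 was higher by 1.46 and 1.84 and TGFBR2 by 1.37 and 1.60. TGFB3 was higher in U2-OS by size without OGE, by 1.23, and differed by 0.25 with it. With OGE, 5 of 10 members were higher by size in U2-OS, against 4.89% of 11492 genes, and 0 were lower, against 6.24%, with 11.1% of genes called either way. Without OGE, 6 of 10 were higher, against 8.26% of 11605 genes, and 0 were lower, against 5.64%, with 13.9% called either way. In both states together 5 members were higher, against 3% of 11069 genes, and 0 were lower, against 3.17%. The median difference over the members was 0.81 with OGE and 1.42 without it, beside -0.02 and 0 over the genes at the floor. The untreated U2-OS array enters both the OGE change in U2-OS and the line difference without OGE, with opposite signs, so these are not independent.

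**Figure D3:**
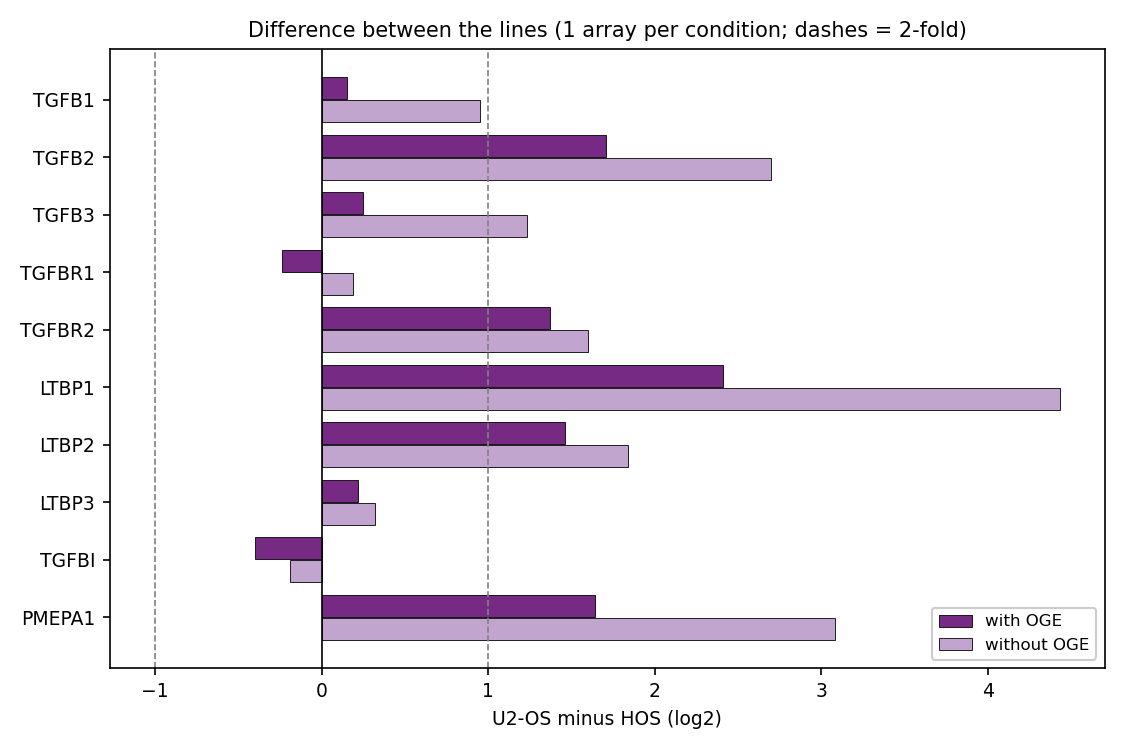
Difference between the lines, as U2-OS minus HOS on the log2 scale, for each member with OGE (dark, upper bar) and without OGE (light, lower bar), with 1 array per condition and dashed lines at 2-fold. TGFB2, TGFBR2, LTBP1, LTBP2 and PMEPA1 pass 2-fold in both states, with LTBP1 at 2.41 and 4.43, while TGFBR1, LTBP3 and TGFBI stay between -0.40 and 0.32.

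The other members differed by less than 2-fold. TGFB1 was higher in U2-OS by 0.15 with OGE and by 0.95 without it, and without OGE it was 1.00 and past the threshold after cyclic loess normalization. LTBP3 differed by 0.22 and 0.32, and TGFBI by -0.40 and -0.19. TGFBR1 had differences of -0.24 with OGE and 0.19 without it, with a mean of -0.025 that took the value 0.0062 with quantile normalization and 0.03 with cyclic loess. With limma, using the OGE states as repeats, 3 of 10 members were higher in U2-OS at an adjusted p under 0.05, against 0.885% of 18417 genes, and 0 were lower, against 1.04%, with 1.92% called either way. At an unadjusted p under 0.05 limma had 5 members, against 20.7% of genes. The called members were LTBP2 with a mean difference of 1.65 ± 0.27, TGFBR2 with 1.48 ± 0.16 and TGFB2 with 2.20 ± 0.70 (SD, n = 2 states), at adjusted p of 0.043, 0.0434 and 0.0488 in limma. LTBP1 with 3.42 ± 1.43 and PMEPA1 with 2.36 ± 1.02 had adjusted p of 0.0567 and 0.0656 in limma. Each of these 5 was higher in U2-OS in 2 of 2 states. Without OGE as a term in limma, 0 members were called and the adjusted p lay between 0.0756 for LTBP2 and 0.379 for TGFB2, and in 4 other alternative fits all 5 were called.

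Pathway genes outside the group were described by role. Of 18 genes of latency activation and coreceptors, 14 were at the floor in each line. In U2-OS 5 were lower by size, against 7.88% of all genes at the floor, and in HOS 1, against 2.18%. None was higher in either line, against 2.94% and 1.7%. Over all 18 genes the median changes were -0.38 in U2-OS and 0.10 in HOS. The integrin subunits ITGAV and ITGB8 pair as an integrin that binds the propeptide. In U2-OS they were at 4.85 and 3.01 with OGE and at 6.63 and 4.57 without it, changes of -1.78 and -1.56. In HOS, ITGAV had a change of -0.25, and ITGB8, whose HOS values were below the array medians, of 0.51. ITGB1, another partner of ITGAV, had changes of -1.84 in U2-OS and -0.75 in HOS, and thrombospondin 1, THBS1, a release factor, of -1.63 and -0.45. Fibrillin 1, FBN1, the microfibril protein to which latent complexes are anchored, had a change of -1.37 in each line. The betaglycan gene TGFBR3 was at 3.07 with OGE and 4.03 without it in U2-OS, a change of -0.96 that was past 2-fold after cyclic loess.

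The SMAD genes and the inhibitors each held 1 lower gene in U2-OS, beside the 7.88% of all genes at the floor, and no call in HOS. Of 8 SMAD and partner genes, 7 were at the floor in each line. SMAD4, the shared SMAD, was lower by size in U2-OS, with a change of -1.06 there and 0.29 in HOS. The signalling SMADs SMAD2 and SMAD3 had changes of -0.66 and -0.51 in U2-OS and of -0.24 and 0.05 in HOS. Of 11 inhibitors, 10 were at the floor in U2-OS and 8 in HOS. SKIL, a SMAD corepressor, was lower by size in U2-OS, with a change of -1.02 there and 0.33 in HOS. SMAD7, an inhibitor that TGF-beta itself induces, was at 5.26 with OGE and 5.25 without it in U2-OS and at 4.02 with OGE and 3.74 without it in HOS. The median changes of the inhibitors were -0.02 in U2-OS, or -0.14 after quantile normalization or cyclic loess, and 0.17 in HOS. SMURF2, a ubiquitin ligase that acts on the receptors, had a change of -0.99 in U2-OS that was past 2-fold after cyclic loess.

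Known TGF-beta target genes went both ways. Of 26 measured, 4 were higher and 5 lower by size in U2-OS, and 2 were higher and 5 lower in HOS. In each line 24 of the 26 were at the floor. The shares over the genes at the floor were 2.94% higher and 7.88% lower for U2-OS, against 1.7% and 2.18% for HOS. The medians were -0.18 in each line. The matrix genes FN1, COL3A1 and COL1A1 had changes of -1.20, -1.99 and -1.75 in U2-OS, and of -1.61, -1.13 and -0.94 in HOS, the last of these under the threshold. The tropomyosin TPM1 had changes of -2.46 and -1.41. COL1A2 and TAGLN, an actin-binding protein, were lower in HOS, with changes of -1.25 and -1.0, and had -0.08 and -0.15 in U2-OS. Their levels without OGE were 4.46 and 5.18 in U2-OS, against 8.78 and 8.68 in HOS. The TAGLN call was lost after quantile normalization. Transcription factors were among the higher genes. SNAI1 was at 5.66 with OGE and 3.59 without it in U2-OS and at 5.15 with OGE and 3.66 without it in HOS, changes of 2.07 and 1.49. JUNB was higher by 1.04 in U2-OS and 1.26 in HOS, and KLF10 and BHLHE40 by 1.30 and 2.72 in U2-OS, with 0.28 and 0.79 in HOS. ID1, which is mainly a BMP target, had changes of -1.06 in U2-OS and 0.10 in HOS. The early transcription factors and BHLHE40 are known to be induced by stress and growth signals other than TGF-beta as well.

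**Figure D4:**
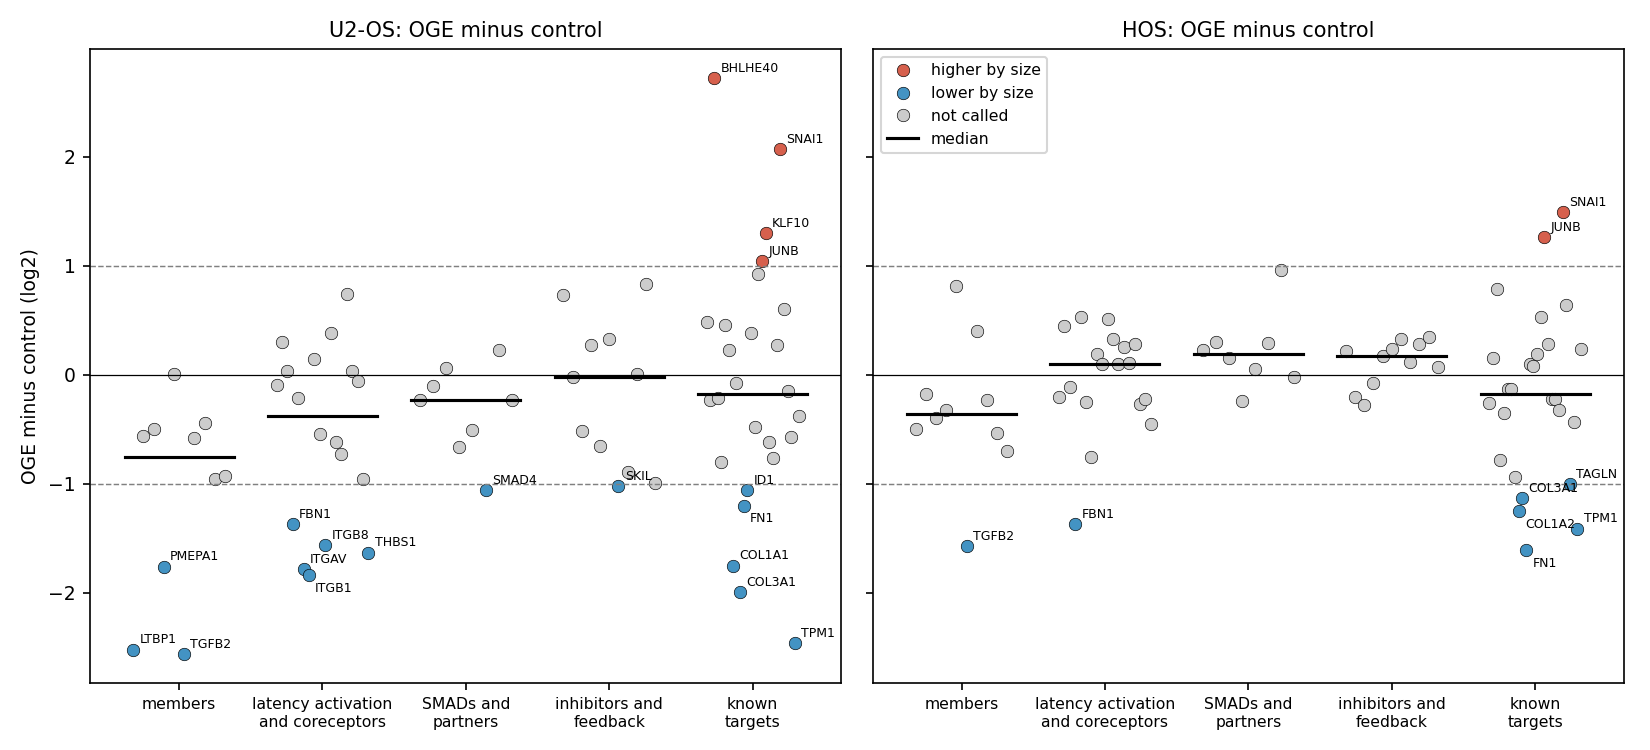
Change with OGE on the log2 scale in U2-OS (left) and HOS (right) for the members and 4 groups of pathway genes, with 1 point for each gene, a black bar at each group's median, dashed lines at 2-fold, and names for genes called higher (red) or lower (blue) by size. In U2-OS the members have 3 lower genes and the latency activation group 5, and the known targets hold the 4 genes called higher.

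The same lists were set between the lines. Over the genes at the floor, 4.89% were higher and 6.24% lower in U2-OS with OGE, and 8.26% higher and 5.64% lower without it. In each state, 14 of the 18 latency activation genes, 7 of the 8 SMAD genes and 10 of the 11 inhibitors were at the floor. Of the 26 targets, 25 were at the floor with OGE and 24 without it. Of the latency activation group, 3 genes were higher and 2 lower by size in U2-OS with OGE, and 6 were higher and 1 lower without it. THBS1 was higher by 1.04 with OGE and 2.22 without it, and the integrin subunit ITGB5 by 1.34 and 1.39, with an adjusted p of 0.046 in limma. With OGE, the protease gene MMP9 was higher by size, by 1.24, with a difference of 0.61 without it, and TGFBR3 was lower, with differences of -1.51 and -0.77. Without OGE, ITGB8 was higher by 2.90, MMP14, a membrane protease, by 1.83, ITGB1 by 1.59 and FURIN, which cleaves the ligand precursor, by 1.08. FBN1 was lower in U2-OS, with a difference of -1.58 in each state and an adjusted p of 0.0415 in limma. Of the 8 SMAD genes, 1 was higher by size with OGE and 2 without it, and of the 11 inhibitors 1 and 4, with none lower. SMAD7 was higher by 1.24 and 1.51, with an adjusted p of 0.0488 in limma, and SMAD4 by 1.33 and 2.68. Without OGE, SMURF2 was higher by size, by 1.78, SKIL by 1.42, the phosphatase PPM1A by 1.16 and the coactivator CREBBP by 1.10. Of the 26 targets, 5 were higher and 4 lower with OGE, and 5 were higher and 2 lower without it. BHLHE40 was higher by 3.15 and 1.22, KLF10 by 2.03 and 1.01, ID1 by 1.67 and 2.83 and ID3 by 1.51 and 2.18. ID2 was higher by size with OGE, by 1.07, with 0.77 without it, and NEDD9, a scaffold protein, had 0.95 with OGE and was higher by size without it, by 1.49. ID3 had an adjusted p of 0.0464 in limma. COL3A1 and COL1A1 were lower by size with OGE, with -1.69 and -1.36, and had -0.83 and -0.55 without it. TAGLN and COL1A2 were lower with and without OGE, with differences of -2.65 and -3.50 and of -3.15 and -4.32, and with adjusted p of 0.0346 and 0.0355 in limma. Over all 26 targets the median difference was 0.165 with OGE and -0.085 without it.

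Of the members, TGFB2 was called in both lines, and its pattern over the 4 arrays was set against 12028 other genes at or above an array median on at least 1 array. Likeness was the distance between the 4 values of each gene after its own mean was taken away. The 3 nearest genes were EDIL3, a secreted integrin-binding protein, at a distance of 0.614, DCBLD1, a membrane protein, at 0.774, and TENM2, a teneurin adhesion protein, at 0.783, and the next was at 0.907. EDIL3 was at 6.74 with OGE and 8.88 without it in U2-OS, and at 5.31 with OGE and 6.14 without it in HOS. Like TGFB2, EDIL3 was highest in untreated U2-OS and lowest in HOS with OGE, which follows from its choice by likeness over these same arrays. In HOS the changes of EDIL3 and DCBLD1 were -0.83 and -0.58, under 2-fold, and that of TENM2 was -2.01.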

How the data were processed

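Total RNA was extracted with Trizol, amplified and given a biotin label, per the labels' protocols. The deposited values are log2 expression, and the submitters' processing notes name RMA without a version. The log base was taken from the values. For the probe sets, a genome build is not given in sources used here. Of 33297 probe sets, 19460 had 1 gene symbol in the platform annotation, and 19429 of these were matched by gene ID to RefSeq symbols of GRCh38.p14. This gave 18417 genes, with the probe set of the highest mean used for the 769 genes with several. HMGA2 of the target list and BGLAP of the markers were not analysed here.

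Size calls need a log2 difference of at least 1 and a higher value at or above its array's median. limma 3.58.1 in R 4.3.3 was fitted to all genes with line and OGE as terms and 1 residual degree of freedom. Benjamini-Hochberg adjustment was used at 0.05. The fit was first run on simulated arrays in which OGE changed both lines alike. That run does not cover OGE changes that differ between the lines. No label says whether the arrays were of separate cultures. In the fit with both terms, a gene's residual is the difference of its OGE changes between the lines. The p-values therefore do not measure a spread between repeated arrays of a condition. The number of arrays limits the precision. Named genes are all members, up to 6 called genes of each pathway group and comparison with the largest change, and the 3 genes nearest to each member called with OGE in both lines; other genes were chosen after their values were seen. Members and lists were chosen with earlier results of these data known. Alternatives were other thresholds and floors, quantile and cyclic loess normalization, the mean of probe sets and other limma fits. No protein sequences were used here.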

Additional observations from a re-analysis of the deposited data

Results flagged for a closer look

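With OGE, 12 of the members and pathway genes named above had changes of opposite sign in the lines. Each change is from 1 array per condition, and the differences between the lines were not tested. No share of all genes with opposite signs is given beside this count. Over all genes, 46.2% had a change below 0 in U2-OS and 46.6% in HOS. The count is thus not read as a result about these genes. The U2-OS change was past 2-fold in 4 of the 12. ITGB8 had -1.56 in U2-OS and 0.51 in HOS, SMAD4 -1.06 and 0.29, SKIL -1.02 and 0.33, and ID1 -1.06 and 0.10. The other changes were under 2-fold in both lines. TGFB3 had -0.58 in U2-OS and 0.40 in HOS, SMURF2 -0.99 and 0.07, MMP14 -0.73 and 0.25, and PPM1A -0.65 and 0.17. SMAD3 had -0.51 in U2-OS and 0.05 in HOS, ID3 -0.48 and 0.19, CREBBP -0.23 and 0.23, and FURIN -0.21 and 0.53. In all 12 the change was below 0 in U2-OS and above 0 in HOS. Most of the 12 were named for a call by size, lower with OGE in U2-OS or higher in U2-OS than in HOS. The shared direction is thus tied to how they were picked. Among genes of the pathway lists not named above, opposite signs went both ways. ACTA2 had 0.48 in U2-OS and -0.26 in HOS, and LTBP4 had -0.62 and 0.10.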

How the results depend on the processing

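A single array per condition and 1 residual degree of freedom limit every value. The fits for OGE have line as a term, which sets each OGE array against the control array of its own line, and the labels give no replicate numbers to pair by. No array was left out in turn. With a threshold of 1.5-fold, 5 members were lower with OGE in U2-OS, and in HOS 2 were lower and 1 higher; at 3-fold, 0 were lower in HOS and 3 were higher in U2-OS than in HOS with OGE; with a floor at the 75th percentile, 0 were lower in HOS. Without OGE, members higher in U2-OS numbered 7 at 1.5-fold and after cyclic loess, and 5 at 3-fold and with the 75th percentile floor, which also left 4 with OGE. The shifts with threshold and floor follow from the limits themselves. For OGE, limma called 1 member after quantile normalization, and the cause was not tested. For the lines it called 5 after quantile normalization, cyclic loess, with trend and robust moderation, and on genes at or above the median level, against 0 without OGE as a term. Over all genes these fits called from 131 to 1763 genes for the lines, and 0, 1 or 264 for OGE. The median difference of the responses was -0.55 with quantile normalization and -0.60 with cyclic loess. Without line as a term limma's smallest adjusted p for OGE was 0.761. No called member changed sign in the alternatives run, and 53 of 72 alternatives for the counts and medians gave the same value.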
